A study of Drosophila melanogaster with 13 samples.

Results

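Deletion of the CLAMP-binding domain of MLE was accompanied by MSL1 peaks at 285 promoters of the autosomes of *Drosophila melanogaster* adult males that held no MSL1 peak with intact MLE. These promoter peaks were chosen on the measured MSL1 lists: each lies on the arms of chromosomes 2 and 3 or on chromosome 4 in the list of MLEΔCBD-FLAG males, overlaps no peak of the MLEwt-FLAG list by even 1 bp, and lies within 200 bp of an annotated transcription start. They make up 285 of the 577 MSL1 peaks of MLEΔCBD-FLAG males, of the 377 autosomal ones, and of the 337 autosomal ones that are absent from the MLEwt-FLAG list. Since the absence from the MLEwt-FLAG list defined them, MSL1 itself is described here with no test, and the MSL3 and MSL2 lists, the genes and the promoter sequences are the measures that the choice did not use. In males with intact MLE the whole MSL1 list held 293 peaks, of which 42 were autosomal. The count of 285 depends on this difference in list length: with both lists cut to 293 peaks it was 85.

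The MSL proteins form the dosage compensation complex that raises transcription of the single male X chromosome. MSL1 is the scaffold: it dimerises, binds the male-specific subunit MSL2, and through its C-terminal PEHE domain recruits MSL3 and the histone acetyltransferase MOF. MSL3 has a chromodomain that recognises methylated H3K36 in the bodies of active genes, and MLE is the RNA helicase that incorporates the roX RNAs. CLAMP, a zinc-finger protein that binds GA repeats, helps bring the complex to its entry sites. Among the core promoter elements of housekeeping genes in the fly are Motif 1, bound by the zinc-finger protein M1BP, Motif 6, and the DRE, bound by DREF.

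ChIP-seq with antibodies to MSL1, MSL2 and MSL3 was made on chromatin of whole adult males aged 2 to 3 days, with 2 libraries per protein and line and 1 further library with preimmune serum from the MLEwt-FLAG line (13 libraries in all). MLEΔCBD-FLAG males were *y1w1118; mle9/mle9; Ubi:mleΔCBD-FLAG/Ubi:mleΔCBD-FLAG*, and MLEwt-FLAG males were *y1w1118; mle9/mle9; Ubi:mleWT-FLAG/TM6*. Both lines are therefore null for endogenous *mle* and express a FLAG-tagged MLE from the strong, ubiquitous *Ubi-p63E* promoter at the same landing site on chromosome 3, but MLEΔCBD-FLAG males carry it homozygous and are weak, while MLEwt-FLAG males carry 1 copy over the TM6 balancer. By the immunoblots of the paper, MLE was at a similar level in these lines, and MSL1 and MSL2 levels did not differ significantly. The deletion, the number of transgene copies, the balancer and the condition of the flies cannot be told apart. Each protein and line has 1 list of reproducible peaks, without read counts, so the depth is unknown, no difference between lines could be tested over replicates, and shares are given with 95% Wilson intervals that cover the counting of peaks alone.

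The promoters that carry the results of the sequence analysis are shown here, each as the stretch just upstream of the transcription start that no annotated exon overlaps, read 5′ to 3′ in the direction of the gene from the RefSeq genome of the dm6 build. Capitals mark a match to Motif 1 (GGTCACAC) or to Motif 6 (GGTATTTT, AAAATACC on the other strand). The promoters of *Wdr62* (chr2L:1884502-1884621, plus strand) and *gukh* (chr3R:18983905-18984024, plus strand) are the strongest for MSL1, among the protein-coding genes of arms 2L, 3L and 3R, with Motif 1 in such a stretch. Those of *lace* (chr2L:15499007-15499126, plus strand) and *RtcB* (chr2L:19430523-19430642, plus strand) are the strongest of them with Motif 6. That of *CG13088* (chr2L:8488861-8488980, plus strand) is shown for a promoter with MSL3 in MLEΔCBD-FLAG males alone, and that of *ATPsynD* (chr3R:19094906-19094999, plus strand) for one with MSL3 in MLEwt-FLAG males alone. The promoter of *msl-2* (chr2L:3466113-3466156, minus strand) was added after its values were seen, because the gene encodes a subunit of the complex.
Wdr62: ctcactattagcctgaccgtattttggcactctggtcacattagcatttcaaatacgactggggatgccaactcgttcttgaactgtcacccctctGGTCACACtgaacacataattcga
gukh: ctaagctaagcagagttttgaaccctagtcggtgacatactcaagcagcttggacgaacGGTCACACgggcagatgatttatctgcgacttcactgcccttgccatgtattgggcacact
lace: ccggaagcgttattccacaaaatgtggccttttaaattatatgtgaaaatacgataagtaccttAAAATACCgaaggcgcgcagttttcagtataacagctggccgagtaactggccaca
RtcB: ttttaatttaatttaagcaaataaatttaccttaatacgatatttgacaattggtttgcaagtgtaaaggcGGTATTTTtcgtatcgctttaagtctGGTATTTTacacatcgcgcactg
CG13088: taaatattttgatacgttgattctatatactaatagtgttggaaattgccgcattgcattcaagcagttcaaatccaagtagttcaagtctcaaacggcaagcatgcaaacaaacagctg
ATPsynD: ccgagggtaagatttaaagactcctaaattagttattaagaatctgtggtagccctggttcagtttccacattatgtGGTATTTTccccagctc
msl-2: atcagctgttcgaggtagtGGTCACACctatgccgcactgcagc

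In *Wdr62* the Motif 1 match began at -24 relative to the start, in *gukh* at -61 and in *msl-2* at -25. In *lace* a single Motif 6 match began at -56, and in *RtcB* a pair of them began at -49 and -23. The MSL1 summits of *lace* (-146 bp) and *RtcB* (-223 bp) lie upstream of the stretches shown. Their nearest Motif 6 matches are centred 94 and 178 bp from these summits. The 120 bases of *CG13088* held neither motif. Apart from *ATPsynD*, whose Motif 6 match began at -17, the genes shown with a match have MSL1 fold enrichments (the authors' ratio of ChIP signal to local background) of 3.13 for *msl-2* and between 4.64 and 9.37 for the others.

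As MSL1 peaks, the 285 gained promoter peaks were narrow and of modest strength. Their fold enrichment had a median of 2.85 and ran between 2.15 and 10.0, and their width had a median of 369 bp. In the list of 577 peaks ordered by fold enrichment, they took places between 45 and 572, with a median place of 390. For comparison within the same list, the median fold enrichment was 3.99 at the 52 gained autosomal peaks away from starts, 14.5 at the 40 autosomal peaks that the MLEwt-FLAG list also holds, and 4.12 at the 187 X-chromosomal peaks. The list also gives −log10 p in both of the peak sets whose reproducibility was assessed, which carry no replicate label. The larger exceeded the smaller by a median factor of 1.19 and by over 1.5 times at 36 of the 285 peaks, and the first set had the larger value at 137.

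MSL1 lay just upstream of the start. Measured from the start nearest to it, in the direction of the gene, the summit had a median position of -52 bp, with quartiles of -81 and -27 bp. Of the 285 summits, 257 were upstream of that start, 216 were between 100 bp upstream and the start itself, and 21 were more than 200 bp away. The farthest was at -1280 bp, in the 3115 bp wide peak of *CG5810*. Only 6 of the peaks were wider than 1000 bp. The widest, of 6521 bp, spans *Lerp*, the receptor for lysosomal enzymes, together with the Integrator subunit gene *IntS12* and *mir-1012*. A peak of 1688 bp covers *Sc2* and *Ubi-p63E*. The promoter of *Ubi-p63E* is also the one that drives both transgenes, so DNA from the transgene and from the native gene cannot be told apart there, and the part of the different transgene copy numbers in this peak was not tested.

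**Figure D1:**
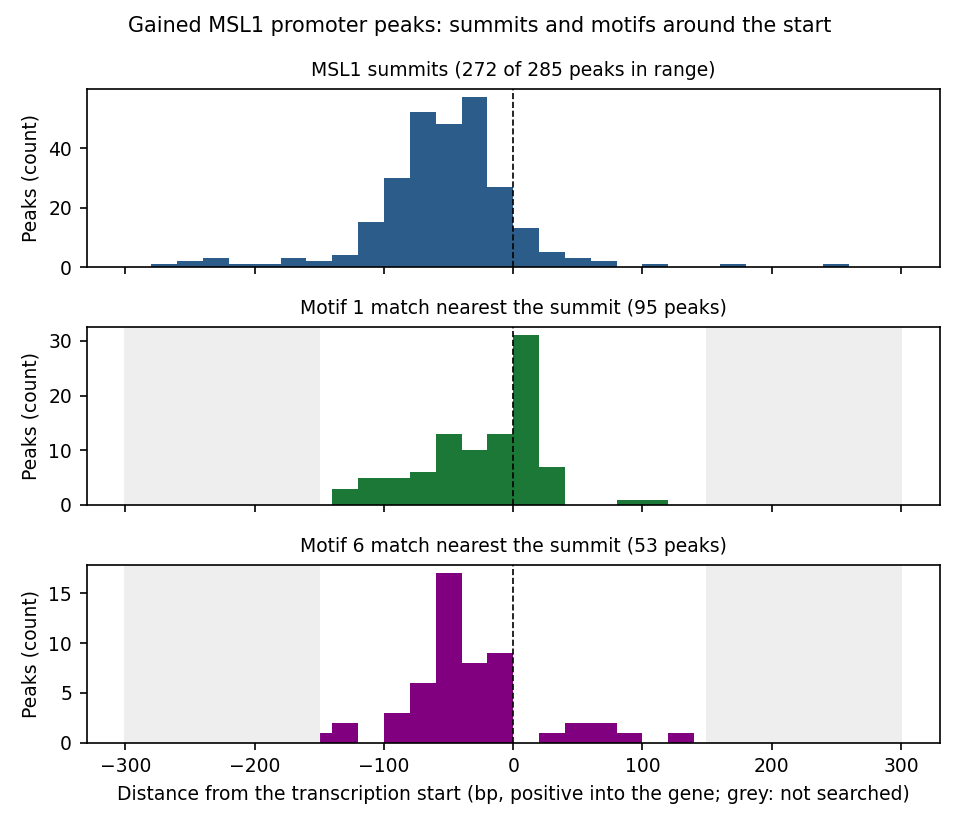
Distance of the MSL1 summit (top), of the nearest Motif 1 match (middle) and of the nearest Motif 6 match (bottom) from the transcription start nearest the summit, in bp and in bins of 20 bp, for promoter MSL1 peaks gained in MLEΔCBD-FLAG males. The 272 of 285 summits within 300 bp of a start pile up just upstream of it, the 95 Motif 1 matches have quartiles at -53 and 10 bp, and 46 of 53 Motif 6 matches lie upstream.

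The edges of the rule were not close to most members. A total of 276 peaks touched or spanned a start. The last ones inside the 200 bp limit were those of *CR43158* (187 bp from the start, fold enrichment 3.81), *CG11608* (185 bp, 2.50) and *CG42445* (138 bp, 2.59). The first ones outside it were those of *toc* (231 bp, 3.29), *Nepl8* (242 bp, 3.07) and *CG12054* (245 bp, 2.87). The peaks nearest to an MSL1 peak of MLEwt-FLAG males were those of *roq* at 2348 bp, *ck* at 2542 bp and *Rtnl1* at 3498 bp, and 4 of the 285 lay within 10 kb of one. Gained promoters were mostly scattered: 31 lay within 10 kb of another, and the median distance to the nearest was 110 kb.

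By the MSL3 lists, the gained promoters fell into 4 states. In MLEΔCBD-FLAG males 171 of 285 peaks (60.0%, 95% interval 54.2 to 65.5%) overlapped an MSL3 peak, and in MLEwt-FLAG males 143 of 285 (50.2%, 44.4 to 55.9%). MSL3 was listed in both lines at 135 promoters (47.4%, 41.6 to 53.2%), in MLEΔCBD-FLAG males alone at 36 (12.6%, 9.27 to 17.0%), in MLEwt-FLAG males alone at 8 (2.81%, 1.43 to 5.44%) and in neither line at 106 (37.2%, 31.8 to 42.9%). Thus 135 of the 143 promoters with MSL3 in MLEwt-FLAG males also had it in MLEΔCBD-FLAG males. The 106 promoters with MSL1 and no MSL3 peak in either line are a further state, in which the scaffold subunit was called alone.

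Counted by gene, MSL3 was more frequent at these promoters than over the autosomes. Of the 11749 autosomal protein-coding genes, 400 had a start within 200 bp of a gained MSL1 promoter peak, a background of 3.4% of genes. Among those 400 genes, 226 (56.5%) had an MSL3 peak within 200 bp of a start in MLEΔCBD-FLAG males, against 7.51% of all autosomal protein-coding genes. In MLEwt-FLAG males the count was 181 (45.3%), against 7.98% of all genes. MSL3 in both lines was found at 168 (42.0%), against 5.45%. MSL3 in MLEΔCBD-FLAG males alone marked 58 of the 400 genes (14.5%), against 2.06%, and MSL3 in MLEwt-FLAG males alone marked 13 (3.25%), against 2.53%. The share with MSL3 in MLEwt-FLAG males alone was thus near its background, whereas the others were several times their own. Gene expression was not measured in these libraries, and the background includes genes that are silent in the adult male.

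**Figure D2:**
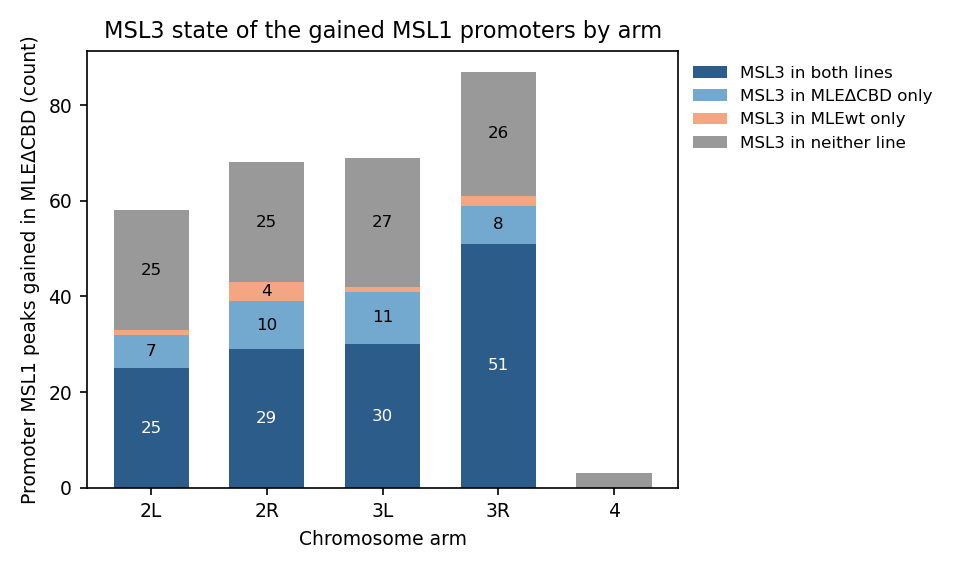
Number of promoter MSL1 peaks gained in MLEΔCBD-FLAG males on each autosomal arm (horizontal axis), stacked by whether an MSL3 peak overlapped in both lines, in MLEΔCBD-FLAG males alone, in MLEwt-FLAG males alone or in neither line. Arm 3R holds the most peaks and the most with MSL3 in both lines (51 of 87), and the 3 peaks of chromosome 4 have no MSL3.

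The states were spread over all large arms. Arm 3R held 87 of the gained promoters, 3L held 69, 2R held 68 and 2L held 58, and chromosome 4 held 3. Per 1000 annotated protein-coding genes this corresponds to 25.4 promoter peaks on 3R, 25.2 on 3L, 23.8 on 2R, 21.8 on 2L and 37.5 on chromosome 4, the last from 80 genes. MSL3 was present in both lines at 58.6% of the 87 peaks on 3R (48.1 to 68.4%), at 43.5% of those on 3L (32.4 to 55.2%), at 42.6% on 2R (31.6 to 54.5%) and at 43.1% on 2L (31.2 to 55.9%), so the intervals of the arms overlapped. All 3 promoters of chromosome 4, those of *Gyf* (fold enrichment 3.22), *anne* (2.75) and *gw* (2.39), lacked MSL3 in both lines. The gene *gw* encodes the GW182 protein of microRNA-mediated silencing.

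The strongest promoters with MSL3 in both lines were those of *lace*, *CG3407*, *beat-Ia*, *CG8366* and *CG10011*. *lace*, which encodes a subunit of serine palmitoyltransferase, had an MSL1 fold enrichment of 9.37, and −log10 p was 164 in the first and 174 in the second peak set. The MSL3 peak there was the 27th strongest of 2301 in MLEΔCBD-FLAG males (fold enrichment 20.8) and the 232nd of 2915 in MLEwt-FLAG males (11.0). *CG3407* had an MSL1 fold enrichment of 8.80, with −log10 p of 180 and 152, next to MSL3 peaks at places 589 and 1297 of the lists of MLEΔCBD-FLAG and MLEwt-FLAG males. *beat-Ia*, a gene of motor axon guidance, reached 7.55 for MSL1 with MSL3 peaks at places 1207 and 1808 in the same order. *CG8366* had 6.81 and *CG10011* 6.61 for MSL1. At *CG10011* MSL3 was again among the strongest peaks, with place 25 in MLEΔCBD-FLAG males and place 288 in MLEwt-FLAG males. The highest MSL1 values thus stood next to MSL3 peaks at both high and low places of the lists.

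Among promoters with MSL3 in MLEΔCBD-FLAG males alone, the shared promoter of *Diap2* and *bug* had the highest MSL1 fold enrichment of all 285 (10.0), with −log10 p of 255 and 279 in the pair of sets. *Diap2* encodes an inhibitor of apoptosis that also acts in the immune Imd pathway. Its MSL3 peak had a fold enrichment of 3.07, at place 980 of 2301. It was followed by *CG13088* (MSL1 4.95), *CG43886* (4.11), *nudC* (3.89), which encodes a partner of the dynein motor, and *RNASEK* (3.78). Their MSL3 peaks ranged between place 606 for *nudC* and place 1968 for *CG13088*.

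MSL3 in MLEwt-FLAG males alone was found at 8 promoters, all weak for MSL1 (2.20 to 3.04). The strongest were those of *ATPsynD* with *mRpL55* (3.04), *CG11788* with *CG10444* (2.85), *spen* with *CG33635* (2.83), *zip* with *uzip* (2.57) and *upSET* with *Nprl3* (2.55). *ATPsynD* encodes a subunit of the mitochondrial ATP synthase, *zip* the heavy chain of non-muscle myosin II and *Nprl3* a subunit of the GATOR1 complex. The MSL3 peak of *upSET* was strong in MLEwt-FLAG males, at place 142 of 2915 with a fold enrichment of 14.4. At these 8 promoters the summits of MSL1 and of MSL3 lay a median of 740.5 bp apart, with the nearest pair 97 bp apart.

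Of the 106 promoters with MSL3 in neither line, the strongest for MSL1 were *RtcB*, which encodes an RNA ligase (fold enrichment 5.88, −log10 p of 82.6 and 58.7), *Galphaq* with *CG45086* (5.27), *RhoGEF4* with *Rint1* (4.84), *roq* (4.70) and *rogdi* (4.55). *Galphaq* encodes the G-protein subunit of phototransduction and *roq* an RNA-binding protein of the Roquin family. The MSL1 summits of *RtcB* (-223 bp), *Galphaq* (454 bp) and *rogdi* (-386 bp) lay away from the start. Those of *RhoGEF4* (-18 bp) and *roq* (-41 bp) were near it. Absence from a thresholded list does not show that MSL3 was absent.

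**Figure D3:**
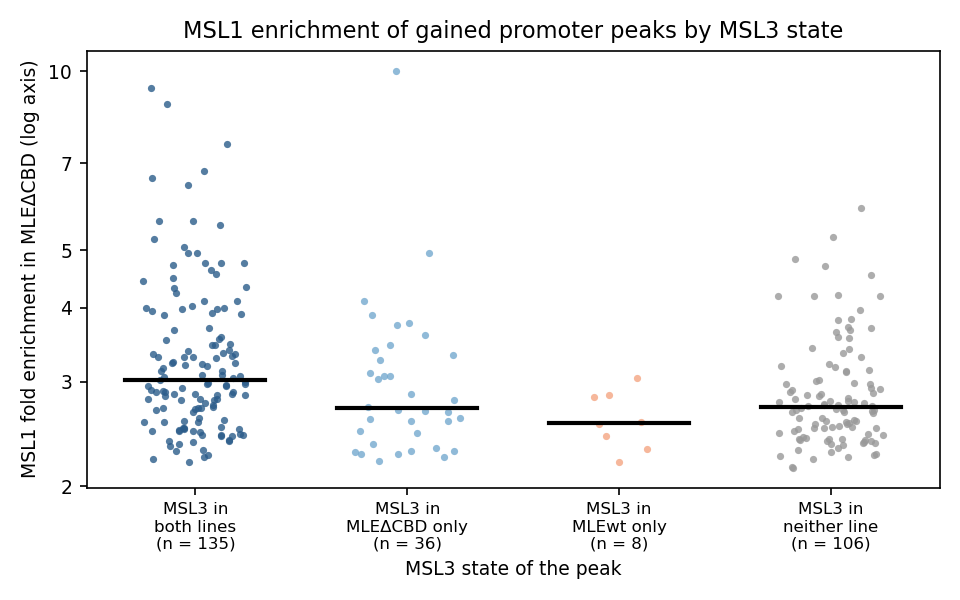
MSL1 fold enrichment in MLEΔCBD-FLAG males (vertical log axis) of each gained promoter peak, grouped by its MSL3 state (points are peaks, black lines are medians). The medians are 3.02, 2.71, 2.56 and 2.72 in the order drawn, and all groups overlap over most of their range.

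MSL1 fold enrichment overlapped broadly between the states. Its median was 3.02 at promoters with MSL3 in both lines, 2.71 with MSL3 in MLEΔCBD-FLAG males alone, 2.56 with MSL3 in MLEwt-FLAG males alone and 2.72 with MSL3 in neither line. When the 285 peaks were divided into 3 groups of 95 by fold enrichment, MSL3 in MLEΔCBD-FLAG males was listed at 70 of the strongest (73.7%, 64.0 to 81.5%), 54 of the middle (56.8%, 46.8 to 66.3%) and 47 of the weakest (49.5%, 39.6 to 59.4%). For MSL3 in MLEwt-FLAG males the counts were 59, 46 and 38. The share of promoters without MSL3 in either line was 26.3% in the strongest and 45.3% in the weakest group. Even among the 95 strongest, 25 promoters therefore had no MSL3 peak.

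Where an MSL3 peak overlapped, its summit was mostly at the promoter. Such a peak was counted only if it overlapped an MSL1 peak at a start, so its closeness to both is in part set by this choice. Summit positions of other MSL3 peaks at starts were not compared. In MLEΔCBD-FLAG males the summits of MSL1 and MSL3 were a median of 23 bp apart and within 100 bp of each other at 151 of 171 promoters. In MLEwt-FLAG males, the MSL3 summits were a median of 28 bp from the position of the MSL1 summit of MLEΔCBD-FLAG males, and within 100 bp at 109 of 143. The MSL3 summit was within 250 bp of the start at 152 of 171 promoters in MLEΔCBD-FLAG males and at 117 of 143 in MLEwt-FLAG males. It lay more than 250 bp into the gene at 7 of 171 and 13 of 143. The median width of these MSL3 peaks was 548 bp in MLEΔCBD-FLAG males and 650 bp in MLEwt-FLAG males.

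MSL3 peaks at these promoters were stronger than MSL3 peaks at other autosomal starts of the same list. In MLEΔCBD-FLAG males the median fold enrichment of MSL3 was 4.72 at the 171 gained promoters and 2.78 at 589 autosomal MSL3 peaks that lie at a start and have no MSL1 peak in that line. In MLEwt-FLAG males it was 3.90 at 143 and 2.89 at 758, the latter again without an MSL1 peak of MLEΔCBD-FLAG males. In the order of autosomal MSL3 peaks this corresponds to a median place of 356 against 694 of 1570 in MLEΔCBD-FLAG males, and of 409 against 762 of 1879 in MLEwt-FLAG males. The strength differed by state: in MLEΔCBD-FLAG males MSL3 had a median of 5.90 where it was listed in both lines and of 2.44 where it was listed in that line alone. The 36 promoters with MSL3 in MLEΔCBD-FLAG males alone had MSL3 peaks with a median place of 1444 of 2301.

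MSL2 was listed at 2 gained promoters. Its list in MLEΔCBD-FLAG males, with 23 autosomal peaks, overlapped 2 of 285 gained promoters (0.702%, 0.193 to 2.52%), those of *Lerp* (MSL1 fold enrichment 2.67) and *Ugt303B3* (2.69), a UDP-glycosyltransferase gene. Both had MSL3 in MLEΔCBD-FLAG males alone. The MSL2 list of MLEwt-FLAG males, with 4 autosomal peaks, overlapped 0 of 285 (upper bound of the interval 1.33%). The share of all autosomal starts with an MSL2 peak was not computed, so these shares cannot be called low or high. Among the 52 gained autosomal peaks away from starts, MSL2 of MLEΔCBD-FLAG males overlapped 6 (11.5%, 5.40 to 23.0%).

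The MSL3 state of the other autosomal MSL1 peaks is given for comparison. At the 52 gained peaks away from starts MSL3 was listed at 39 in MLEΔCBD-FLAG males (75.0%, 61.8 to 84.8%) and at 22 in MLEwt-FLAG males (42.3%, 29.9 to 55.8%). At the 40 autosomal peaks that were in both MSL1 lists it was listed at 38 in MLEΔCBD-FLAG males (interval 83.5 to 98.6%) and 39 in MLEwt-FLAG males (97.5%, 87.1 to 99.6%), and this held for the 21 of them at a start (19 and 20). The interval of the gained promoters for MLEΔCBD-FLAG males, 54.2 to 65.5%, does not reach that of the peaks in both lists, but in both lines the intervals of the gained promoters overlap those of the gained peaks away from starts.

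Of the 8 motifs searched, Motif 1 showed the largest gap between gained promoters and all starts. Within 150 bases of the start nearest the summit, on either strand, GGTCACAC was found at 95 of 285 gained promoters (33.3%, 28.1 to 39.0%), against 6.22% of 15977 distinct autosomal protein-coding starts (5.85 to 6.60%). At 771 starts with an MSL3 peak in MLEΔCBD-FLAG males within 200 bp and no MSL1 peak in either line, the share was 9.34% (7.48 to 11.6%). The letters were read in the direction of the gene at 62 of the 95 promoters. The match nearest the summit was centred a median of 9 bp upstream of the start (-9, quartiles -53 and 10) and 45 bp from the MSL1 summit. Starts that lie close together share sequence, so starts are not independent of each other. All starts include those of genes silent in the adult male, and motif shares could not be compared with expressed promoters alone.

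The shares of Motif 1 in the MSL3 states had overlapping intervals. It was found at 42 of 135 promoters with MSL3 in both lines (31.1%, 23.9 to 39.4%), 7 of 36 with MSL3 in MLEΔCBD-FLAG males alone (19.4%, 9.75 to 35.0%), 4 of 8 with MSL3 in MLEwt-FLAG males alone and 42 of 106 with MSL3 in neither line (39.6%, 30.8 to 49.1%). By MSL1 fold enrichment the share was 24.2% in the strongest group (16.7 to 33.7%), 35.8% in the middle (26.9 to 45.8%) and 40.0% in the weakest group (30.7 to 50.1%). None of the 5 strongest promoters with MSL3 in both lines and none of the 5 strongest with MSL3 in neither line held it.

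**Figure D4:**
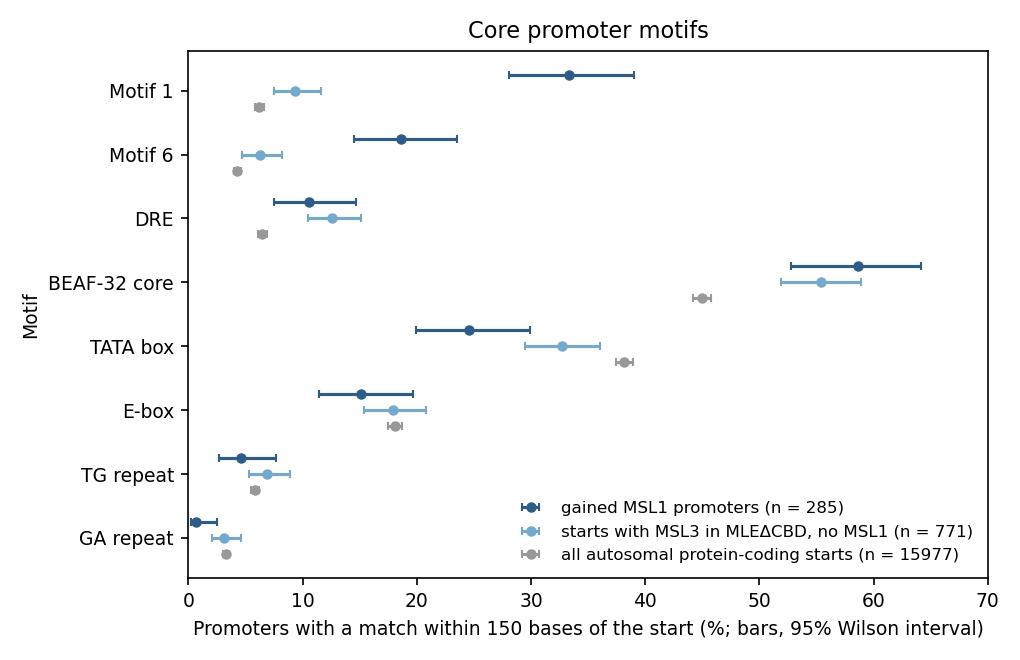
Percentage of promoters with a match to each motif within 150 bases of the start (points, with 95% Wilson intervals as bars) at gained MSL1 promoters (285, top of each trio), starts with MSL3 in MLEΔCBD-FLAG males and no MSL1 (771, middle) and all autosomal protein-coding starts (15977, bottom). Motif 1 and Motif 6 lie far to the right at the gained promoters, and GA repeats and TATA boxes are below the level of all starts.

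Among the other motifs, Motif 6 was more frequent than at all starts, and the TATA box was less frequent. Motif 6 (GGTATTTT), which was added after the sequences of the members had been seen, was found at 53 promoters (18.6%, 14.5 to 23.5%), against 4.29% of starts, and 17 promoters held both Motif 1 and Motif 6. The DRE (TATCGATA) was found at 30 (10.5%, 7.47 to 14.6%), against 6.47%, but at 12.6% of the starts with MSL3 and no MSL1. With 1 start per gene as the reference, 7.76% of starts held the DRE, which is inside the interval of the gained promoters. At least 1 of these 3 motifs was present at 153 promoters (53.7%), against 15.3% of starts. The CGATA core of BEAF-32, which is contained in the DRE, was found at 58.6% (52.8 to 64.2%), against 45.0%. At the starts with MSL3 and no MSL1 the share of this core was 55.4% (51.9 to 58.9%), which is inside the interval of the gained promoters. The TATA box (TATAAA) was less frequent, at 24.6% (19.9 to 29.9%) against 38.2%, and the E-box CAGCTG, at 15.1% against 18.1%, had an interval (11.4 to 19.7%) that includes the level of all starts.

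GA repeats, the sequence to which CLAMP binds, were found at few gained promoters. A run of 4 GA units was found at 2 of 285 gained promoters (0.702%, 0.193 to 2.52%), against 3.30% of all starts and 3.11% of the starts with MSL3 and no MSL1. Within 100 bases of the summit the share was 0.702%, against 2.09% of all starts within 100 bases of the start. Within 50 bases of the start it was 0.351% against 0.532%, so the gap depends on the window. TG repeats of 4 units were found at 4.56%, against 5.78%, with an interval (2.68 to 7.65%) that includes this level. Around the summit, within 150 bases, Motif 1 was found at 102 of the 285 gained promoter peaks (35.8%, 30.4 to 41.5%) but at 2 of the 52 gained peaks away from starts (3.85%, 1.06 to 13.0%) and 1 of the 40 autosomal peaks in both lists (2.50%, 0.443 to 12.9%). Matches are a description of letters in a window and were not tested as binding sites.

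Read from the side of the starts, Motif 1 and MSL3 each went with gained MSL1. Of 138 autosomal protein-coding starts with Motif 1 and an MSL3 peak of MLEΔCBD-FLAG males, 65 (47.1%, 39.0 to 55.4%) lay within 200 bp of a gained promoter MSL1 peak. The share was 22.5% with MSL3 and no Motif 1 (207 of 921), 8.77% with Motif 1 and no MSL3 (75 of 855) and 0.988% with neither (139 of 14063). With the MSL3 list of MLEwt-FLAG males, in which the deletion is not present, the shares were 42.1% (61 of 145), 15.5% (158 of 1021), 9.32% (79 of 848) and 1.35% (188 of 13963) in the same order. Among starts with a GA repeat and MSL3 in MLEwt-FLAG males the share was 3.13% (2 of 64), and 19.7% (217 of 1102) without the repeat. With the list of MLEΔCBD-FLAG males it was 11.1% (3 of 27, 3.85 to 28.1%), and 26.1% (269 of 1032) without the repeat, a level inside that interval.

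**Figure D5:**
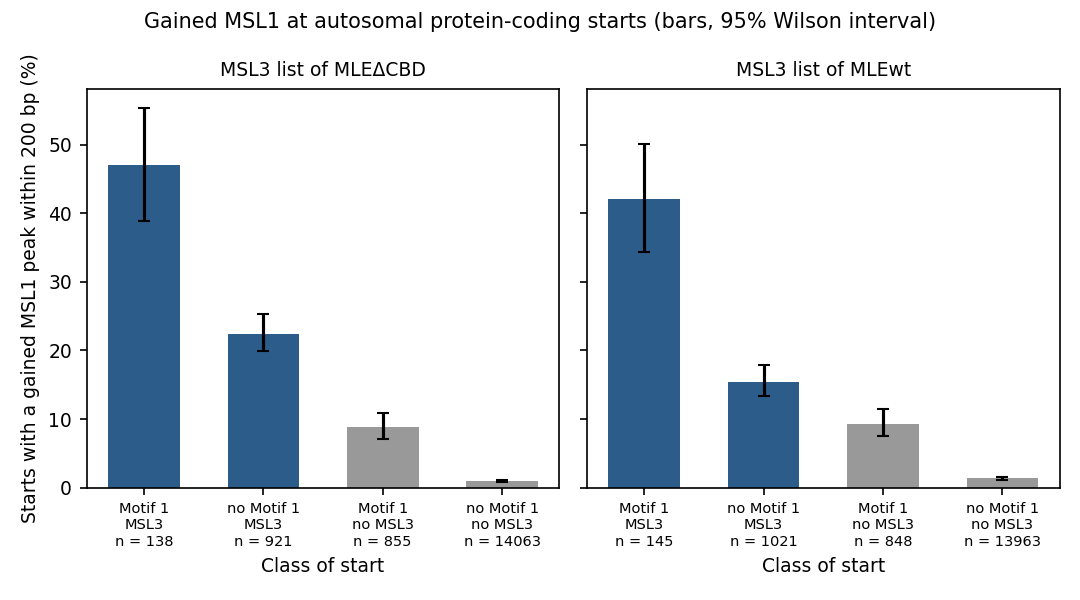
Percentage of autosomal protein-coding starts within 200 bp of a gained promoter MSL1 peak (vertical axis, with 95% Wilson intervals) by the presence of Motif 1 and of an MSL3 peak, with MSL3 taken from the list of MLEΔCBD-FLAG males (left) or MLEwt-FLAG males (right). In both panels starts with Motif 1 and MSL3 are the highest (47.1 and 42.1%) and starts with neither the lowest (0.988 and 1.35%).

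The genes at the gained promoters were mostly protein-coding and often arranged head to head. Within 200 bp of the 285 peaks lie the starts of 423 genes: 400 protein-coding, 13 other non-coding RNA, 5 tRNA and 4 snoRNA genes and 1 pseudogene. A single gene was found at 160 peaks, 2 genes at 115 and 3 or more at 10. Of the 400 protein-coding genes, 224 (56.0%, 51.1 to 60.8%) had a divergent partner, with its start on the other strand within 500 bp, against 38.1% (34.5 to 41.9%) of 656 genes with MSL3 in MLEΔCBD-FLAG males and no gained MSL1 peak and 27.7% (26.9 to 28.5%) of all autosomal genes. A peak near both starts of a pair counts both genes, which favours such genes. Their annotated span had a median of 3800 bp, against 4171 bp of the genes with MSL3 and no gained MSL1 and 2102 bp of all autosomal genes.

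Among the gene groups examined, the cytosolic ribosomal proteins had the highest share of promoters with gained MSL1. Of 77 autosomal genes of cytosolic ribosomal proteins, 17 had a gained promoter peak (22.1%, 14.3 to 32.5%), against the background of 3.4%. This background again includes silent genes. MSL3 was listed at 13 of the 17 in MLEΔCBD-FLAG males and at 10 in MLEwt-FLAG males, and Motif 1 was found at 3. *RpL3* had the highest MSL1 fold enrichment (5.51, −log10 p of 82.9 and 91.6), followed by *RpL23* (4.24), *RpL30* (3.98) and *RpL7* (3.48), and all of these had MSL3 in both lines. When each peak was given only the gene of the nearest start, 13 of the 77 remained counted. Among translation factors 4 of 47 had a peak: *eIF3k* (2.61), *eIF4G2* (2.59), *eIF4E1* (2.48) and *eIF4A* (2.39). Of the 31 tRNA synthetase genes, 1 was a member (3.23%, 0.572 to 16.2%, which includes the background). It was *beta-PheRS* (3.74), with MSL3 in MLEΔCBD-FLAG males alone.

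Genes of mitochondrial energy supply were also among the members. Of 77 autosomal genes of the respiratory chain and ATP synthase, 8 had a gained promoter peak (10.4%, 5.36 to 19.2%), against the background of 3.4%, and 5 when each peak was given only the gene of the nearest start. The strongest were *ATPsynC* (5.61), *ATPsynF* (3.23), *UQCR-Q* (3.20) and *ND-PDSW* (3.13). Motif 1 was found at 5 of the 8 and MSL3 at 6 in each line. Mitochondrial ribosomal protein genes had 5 of 62 (8.06%, 3.49 to 17.5%), *mRpL47* (3.57), *mRpL55* (3.04), *mRpS6* (2.80), *mRpL34* (2.37) and *mRpS21* (2.20), of which 4 held Motif 1. The start nearest the summit belonged to another gene in all 5 cases. Of the 13 glycolytic genes *Pglym78* (2.84) was a member, and of the 31 vacuolar ATPase genes *Vha55* (3.88), and the intervals of both lists include 3.4%.

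RNA polymerase II and its general factors contributed 7 of 62 genes (11.3%, 5.58 to 21.5%). These included the Mediator subunit gene *MED19* (3.11) and the TFIID and TFIIA genes *Taf7* (2.87) and *TfIIA-L* (2.86), followed by *TfIIEalpha* (2.71). The proteasome list held 3 of 42, *Rpn8* (2.76), *Prosbeta1* (2.74) and *Rpn1* (2.71), the spliceosome list 2 of 43, *snRNP-U1-C* (4.64, at the promoter shared with *gukh*) and *hoip* (3.39), and the chaperone list 2 of 38, *Hsc70-4* (3.34) and *Droj2* (2.20). The list of small GTPases and vesicle traffic held 5 of 98: *Arfip* (3.97), *Rab5* (3.10), *Sec61alpha* (2.77), *Sec61beta* (2.50) and *Syx1A* (2.26). The intervals of the proteasome, spliceosome, chaperone and vesicle traffic lists include the background of 3.4%, as does that of the translation factors (3.36 to 19.9%), and none of the 17 autophagy genes was a member.

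Of the complex's own genes, *msl-2* was a member. It shares its promoter with *ND-PDSW*, a subunit of complex I, and the peak had a fold enrichment of 3.13, with −log10 p of 23.4 and 14.0 in the pair of sets, no MSL3 in either line and Motif 1. It was the 1 hit among 13 autosomal genes of the MSL and NSL complexes (7.69%, 1.37 to 33.3%), an interval that includes the background of 3.4%. The genes *mle*, *msl-1*, *msl-3* and *Clamp* were not members, nor were the genes *M1BP* and *Trl*, which were looked up afterwards. At the start of *mle* an MSL3 peak was listed in MLEΔCBD-FLAG males and not in MLEwt-FLAG males. Both transgenes carry *mle* coding sequence, in different copy numbers, and whether transgene DNA adds to this peak was not tested.

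Among RNA genes, 5 of 266 tRNA genes (1.88%, 0.806 to 4.32%) had a gained MSL1 peak, and all of them had MSL3 in both lines. They were *tRNA:Lys-TTT-2-1* (6.44, with the summit at -488 bp), *tRNA:Ala-CGC-1-2* and *tRNA:Ala-CGC-1-3* under 1 peak (4.32), *tRNA:Arg-ACG-1-3* (3.90) and *tRNA:Ala-CGC-1-1* (3.07). With the summit within 200 bp of a start, 3 tRNA genes remained. Genes of 1 tRNA family are near-identical, so reads from them may not be assigned with certainty. The 4 snoRNA genes, of 238 (1.68%, 0.655 to 4.24%), lie under peaks of *Uhg1*, *Uhg4* and *RpL15* promoters, and 0 had the start nearest the summit. Of 30 snRNA genes (upper bound 11.4%) and 96 rRNA genes (upper bound 3.85%) 0 were members. The microRNA genes *mir-4949* (5.61, under the *ATPsynC* peak) and *mir-1012* (2.67, under the *Lerp* peak) were 2 of 202 (0.990%, 0.272 to 3.54%). With the nearest start alone, 0 microRNA genes remained. The intervals of all these lists include 3.4%, the background of protein-coding genes.

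Lists of genes of specialised tissues gave few members. The lists of gut proteases (0 of 47), accessory gland proteins (0 of 64), cuticle proteins (0 of 114), immune peptides (0 of 34) and chemoreceptors (0 of 198) had no member. The upper bound of the interval was below the background of 3.4% for chemoreceptors (1.90%) and cuticle proteins (3.26%), and above it for the other 3 lists. The intervals of the muscle, neuron, photoreceptor and testis lists, which had members, include the background. The muscle list had *Tm1* (3.17), 1 of 23. The neuron list had *Rop* (2.61) and *Syx1A* (2.26), 2 of 20, both of the synaptic vesicle fusion machinery. The photoreceptor list had *Galphaq* (5.27) and *Gbeta76C* (2.52), 2 of 17, and 0 of 17 when the summit had to be within 200 bp of a start. The testis list had *bol* (2.84), 1 of 39. The histone list had *His4r* (2.45), the replication-independent H4 gene, 1 of 114 (0.877%, 0.155 to 4.80%, which includes the background). The tissue was the whole male, peak lists hold no expression, and cell types could therefore not be checked by markers.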

How the data were processed

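ChIP-seq of MSL1, MSL2 and MSL3 was done in MLEΔCBD-FLAG and MLEwt-FLAG adult males. Per the methods, cutadapt, Bowtie2 (dm6) and MACS2 were used for trimming, mapping and peak calling, and IDR for reproducibility. The authors deposited 6 lists, 1 per protein and line. The fold enrichment (ratio over background), the −log10 p and −log10 q values, the −log10 global IDR and, for both sets entered into IDR, the −log10 p are as the authors deposited them. None of the lists' columns names a replicate. Fold enrichments were compared only within a list, since no read depth is given.

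Peaks were shared at an overlap of 1 bp. Starts came from Ensembl release 115 without transposable elements, and sequence from the RefSeq release 6 assembly, whose arm lengths fit the peaks. The gene named for a peak has the start nearest the summit. Motifs were sought on both strands as exact letters. Wilson intervals (95%) cover counting error. No p-value was computed. Named genes were the 5 strongest by fold enrichment in each MSL3 state, those with MSL2 or on chromosome 4, those at the edges of the rule, all hits of a gene list (the 4 strongest above 5 hits) and the genes of the complex. The members, gene lists, motifs and alternatives were chosen with earlier results of these data known. Motif 6 and the name patterns of the tRNA synthetase and microRNA lists were set after a first count. Alternatives changed the overlap, thresholds, list lengths, windows, reference starts and arms. Functions were tested on simulated lists. Python 3.11.15, pandas 2.3.3 and numpy 2.4.6 were used.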

Additional observations from a re-analysis of the deposited data

How the results depend on the processing

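The number of gained promoter peaks, 285, was the same when sharing needed 50% of the shorter peak or summits no more than 250 bp apart, with −log10 q of at least 3 and with a global IDR of 0.01, and it was 264, 306 or 279 with summits at starts, a window of 1000 bp or protein-coding starts alone. No member lay within 1 kb of an MLEwt-FLAG MSL1 peak, and the lowest −log10 global IDR of a member was 2.01. The overlap, summit and IDR 0.01 settings could therefore remove no member. The count was 138 at a global IDR of 0.001 and 85 when the MSL1 lists were cut to the 293 strongest peaks each. That cut shortened only the MLEΔCBD-FLAG list, from 577 peaks, and most of the 285 lay below place 293 of it. Without 3L and 3R the count was 129, by construction. MSL3 in MLEΔCBD-FLAG males stayed between 55.0 and 61.0% of the gained promoters, except at 72.5% among those of global IDR 0.001. MSL3 in MLEwt-FLAG males was 42.8% with summits within 250 bp, 43.9% with MSL3 peaks of global IDR 0.001 and 65.2% among members of that IDR. Motif 1 was found at 23.9% within 50 bases of the start, against 4.68% of all starts. It was found at 32.3% within 100 bases of the summit, against 5.65% of all starts within 100 bases of the start. GA repeats were found at 0.702% within 100 bases of the summit, against 2.09% of starts within 100 bases of the start. Within 50 bases of the start they were found at 0.351%, against 0.532%. The DRE was found at 5.61% within 50 bases, against 4.20%, and with 1 start per gene the reference was 7.76%. The 17 ribosomal protein genes became 13 with the nearest start alone and 14 with the summit at the start, and the 8 respiratory genes became 5 and 7. No paired analysis was possible because the lists hold no replicate columns, which also prevented leaving out a replicate. The lists hold called peaks and no depth, so the absence of a peak is bounded by an unknown detection limit.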

Other observations

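On the X chromosome, 26 MSL1 peaks of MLEΔCBD-FLAG males lay within 200 bp of a start and overlapped no MSL1 peak of MLEwt-FLAG males. Within 150 bases of the summit, Motif 1 was found at 11 of the 26 (42.3%, 95% interval 25.5 to 61.1%), the DRE at 5, Motif 6 at 2 and a GA repeat at 1. MSL3 was listed at 21 of 26 in MLEΔCBD-FLAG males (80.8%, 62.1 to 91.5%) and 22 of 26 in MLEwt-FLAG males (84.6%, 66.5 to 93.9%). MSL2 was listed at 0 of 26 in MLEΔCBD-FLAG males (upper bound 12.9%) and at 2 in MLEwt-FLAG males. The shares of all X-chromosomal starts with these motifs or with MSL proteins were not computed, so these shares cannot be called low or high. On the autosomes, 25.6% of the 882 genes with an MSL3 peak at a start in MLEΔCBD-FLAG males, and 19.3% of the 937 in MLEwt-FLAG males, also had a gained MSL1 peak, so that most promoters with MSL3 acquired no MSL1 peak.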
